A study of Mus musculus with 6 samples.

Results

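Long intergenic noncoding RNAs (lincRNAs) were measured by 4449 of the 56605 probes of the array that are not controls. They were chosen by name alone: the probe ID starts with A_30_P, and the gene name is an interval of a chromosome that ends in F or R, for the forward or the reverse strand. The 4449 probes cover 3229 intervals, of which 832 are probed on both strands. The intervals are 62 to 538251 bases long, with a median of 7207 bases, and all coordinates are of the mouse genome build mm9. TA was performed on the excised kidney of female mice at 6 months of age, with 1 array for each numbered kidney sample. The control group was 3 MRL/MpJ (MRL) mice. The diseased group was 3 MRL/MpJ-Fas lpr/lpr (LPR) mice, which have the MRL/MpJ background and carry the lpr mutation of Fas, a death receptor of lymphocytes, in all of their cells. No agent is named for either group.

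A lincRNA is a transcript that lies between the coding genes, is often spliced and polyadenylated like an mRNA, and is not translated into a known protein. Most are present at low levels and in few cell types. Some lincRNAs act on the genes beside them, others act elsewhere in the genome or in the cytoplasm, and for most no function is known. The comparison asked which of these transcripts differed between the kidneys of MRL and LPR mice, where they lie, and what the nearest coding genes did.

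The probes are 60 bases long and were designed within the interval they are named for. The probes that rose most in LPR mice lie in chr17:29378878-29379589, F strand (A_30_P01024145) and in chr9:89167172-89168980, F strand (A_30_P01031689). The probe that fell most lies in chr5:22928221-22939127, R strand (A_30_P01030591). They read, 5′ to 3′, as follows.
A_30_P01024145: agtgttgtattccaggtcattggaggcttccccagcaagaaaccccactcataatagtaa
A_30_P01031689: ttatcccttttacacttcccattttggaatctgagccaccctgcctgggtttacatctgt
A_30_P01030591: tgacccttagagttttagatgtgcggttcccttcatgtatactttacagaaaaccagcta

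Some lincRNA probes are not independent of each other, because they hold the same bases. Of the 260 probes that differed between the groups, 45 shared a run of at least 20 bases with another probe of the array, on either strand. In 4 pairs both probes had changed and shared a run on the same strand, and the longest shared run is in capitals. The first pair is on chromosome 1 and shares 37 bases, although its intervals, chr1:85117750-85129200 and chr1:87343550-87362900, are far apart.
A_30_P01029479: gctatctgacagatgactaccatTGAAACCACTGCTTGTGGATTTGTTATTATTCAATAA
A_30_P01027120: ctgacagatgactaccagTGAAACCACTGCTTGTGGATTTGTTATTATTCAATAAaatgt
The second pair is on chromosome 5 and shares 48 bases of a repeated motif.
A_30_P01028374: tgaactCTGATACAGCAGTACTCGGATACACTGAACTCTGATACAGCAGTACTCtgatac
A_30_P01027135: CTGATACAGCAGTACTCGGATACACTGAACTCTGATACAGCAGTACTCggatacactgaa
The next pair is on chromosome X and shares 49 bases. The last of the 4, on chromosome 12, shares 28 bases.
A_30_P01032775: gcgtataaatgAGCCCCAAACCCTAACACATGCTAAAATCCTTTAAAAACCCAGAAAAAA
A_30_P01033617: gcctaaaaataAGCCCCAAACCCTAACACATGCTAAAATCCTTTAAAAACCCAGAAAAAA
A_30_P01030702: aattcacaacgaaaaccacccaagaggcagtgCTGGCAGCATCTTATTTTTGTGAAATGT
A_30_P01031995: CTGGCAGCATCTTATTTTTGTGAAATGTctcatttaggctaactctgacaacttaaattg

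In a further pair the probes are exact reverse complements of each other, so they read the opposite strands of the same 60 bases, chr3:127111828-127111887. All bases are shared and stand in capitals. These probes changed in opposite directions, as described with the strands below.
A_30_P01027675: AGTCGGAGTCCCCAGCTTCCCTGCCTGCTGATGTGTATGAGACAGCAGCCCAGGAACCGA
A_30_P01023003: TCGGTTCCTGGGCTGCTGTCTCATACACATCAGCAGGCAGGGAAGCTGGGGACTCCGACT

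Signals are given on the log2 scale after subtraction of the 75th percentile of the array, so that 0 is that percentile and a difference of 1 is 2-fold. A change is LPR minus MRL. On single arrays, 61.1% to 66.3% of the lincRNA probes were well above background, against 68.8% to 72.8% of the other probes. No spot was saturated. Fas itself was read by a bright probe with a log2 change of -0.47 (limma, adjusted p = 0.234) and by a dim one, above background in LPR mice only, that was called higher (adjusted p = 0.0338). The dim probe was tested only through its signal on the LPR arrays, which set its direction, so that direction is no result. Of the marker lists, 9 of 10 tested T cell genes, 9 of 10 macrophage genes, 6 of 7 plasma cell genes, 4 of 5 NK cell genes and 3 of 7 neutrophil genes were higher in LPR mice, as were 20 of 24 genes of the interferon response. Of 8 B cell genes 3 were higher and 1 was lower (median log2 change -0.04). Adipocyte and erythroid markers varied within the groups: the mean level of the adipocyte list was -3.09 to -0.79 in LPR mice, with Adipoq at 0.10, -0.05 and -3.07 in LPR 1, 2 and 3, and that of the erythroid list was -1.17 to 2.18 in MRL mice. The mean level of the T cell list was -2.57 to -2.35 in MRL mice and 0.16 to 0.40 in LPR mice, and that of the proximal tubule list was 5.42 to 5.65 and 4.80 to 4.93. The tissue was not separated into cell types, so fewer cells of a type and less RNA per cell cannot be told apart, and the part of the cell composition in the results was not tested.

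Of the 4449 lincRNA probes, 2846 (64.0%) from 2220 intervals had a signal well above background on 3 or more of the 6 arrays, and these were tested. Of all other probes, 71.1% were tested. The remaining 1603 lincRNA probes have no test here: 1236 were above background on no array, 177 on 1 or 2 LPR arrays only, 106 on 1 or 2 MRL arrays only, and 84 on 1 array of each group. Of the tested probes, 2374 were above background on all 6 arrays, 20 on the 3 LPR arrays alone and 6 on the 3 MRL arrays alone.

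In LPR kidneys 90 lincRNA probes were higher and 170 were lower (limma, adjusted p under 0.05), which is 3.16% and 5.97% of the 2846 tested. Of these, 12 higher probes were above background on the 3 LPR arrays alone and 5 lower probes on the 3 MRL arrays alone. The filter for testing set the direction of these probes. Among the 2374 probes above background on all 6 arrays, 72 were higher and 147 were lower. Over all 39924 tested probes of the array, 6.53% were higher and 6.17% were lower. The lincRNA probes were thus called higher at less than the rate of all probes, and called lower at a rate close to it. The median log2 change was -0.18 over the tested lincRNA probes and -0.14 over all tested probes. With both directions together 9.14% of the lincRNA probes were called, against 12.7% of all probes. Probes for noncoding transcripts with a RefSeq NR or XR identifier, another class of the array, were called higher in 4.0% and lower in 8.23%, and probes of coding genes in 7.47% and 6.29%.

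In the comparison of all 6 arrays the rises were fewer than the falls. This order turned without MRL 1 (65 higher, 52 lower) and was nearly level without MRL 2 (58 and 57). The median fold was 2.14 among the 90 higher probes and 1.59 among the 170 lower probes. A change of at least 2-fold was called for 53 higher and 28 lower lincRNA probes, and a change of at least 4-fold for 10 higher probes and 1 lower probe. Rises of at least 2-fold made up 1.86% of the tested lincRNA probes and 4.46% of all tested probes, and falls of at least 2-fold 0.984% and 0.729%. For rises of at least 4-fold the shares were 0.351% and 2.54%. These folds and shares use fitted values, also for the 12 higher and 5 lower lincRNA probes above background in 1 group alone. For those probes the fitted value is no measured size: A_30_P01028421 is counted at 4.24-fold, although its bound is 1.98-fold. Groups that did not overlap were found for 890 lincRNA probes (31.3%) and for 37.9% of all tested probes.

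The lincRNA probes lay mostly at low signal: when all tested probes were split by signal into 4 classes of equal size, 1241 of the 2846 were in the dimmest class and 214 in the brightest. In the dimmest class 2.58% of the lincRNA probes were higher, against 7.15% of all probes of that class. In the brightest class 5.14% were higher, against 3.79%. The base composition was alike, with a median of 45.0% G and C in the probes that were higher, in those that were lower and in those that did not pass.

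**Figure D1:**
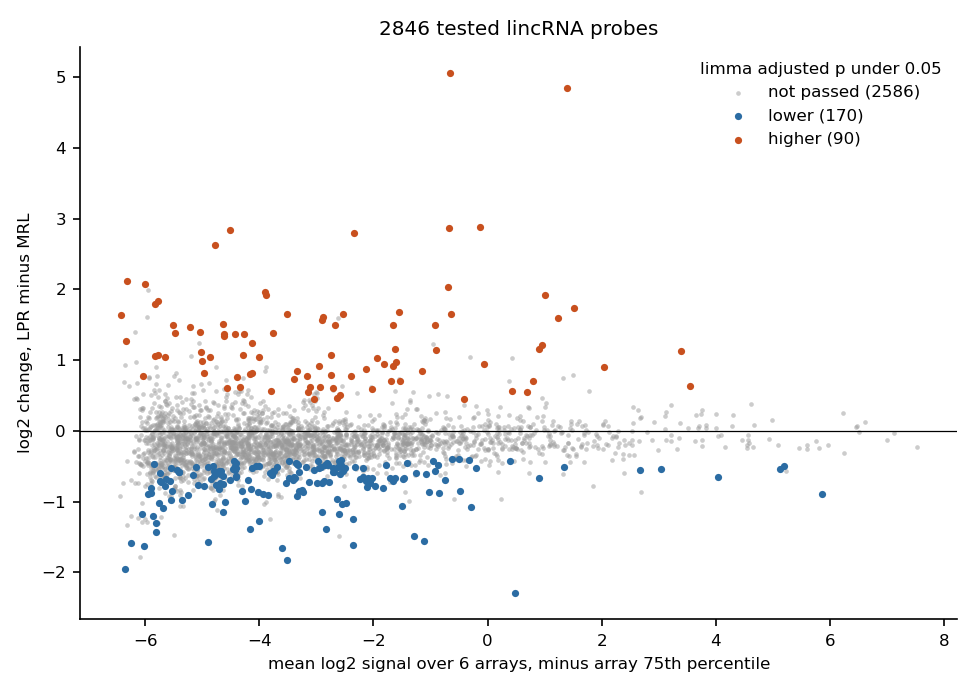
Each point is 1 of the 2846 tested lincRNA probes, with its mean log2 signal over the 6 arrays (minus the 75th percentile of the array) on the horizontal axis and its log2 change, LPR minus MRL, on the vertical axis. The 90 higher probes (orange) reach a log2 change of 5.06, the 170 lower probes (blue) reach -2.29, and 78 of the higher and 160 of the lower probes lie below a signal of 0.

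The groups were not evenly placed on the slide. The 3 MRL arrays and LPR array 1 were in the first column of the slide, and LPR arrays 2 and 3 were in the second. With the slide column as a term in limma, 31 lincRNA probes were higher and 42 were lower. That term leaves LPR 1 as the only LPR mouse compared with the MRL mice, and the changes of the named probes equalled those of the first column alone, so the slide column and the loss of 2 LPR mice cannot be told apart. Leaving out 1 mouse at a time gave 44 (without LPR 3) to 74 (without LPR 2) higher and 52 (without MRL 1) to 144 (without LPR 2) lower, and normexp background correction gave 78 higher and 243 lower. With the slide column as a term, 9 of the 10 largest rises and 7 of the 10 largest falls described below were called, again from LPR 1 alone.

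The largest rise was that of A_30_P01024145, in a short interval of chromosome 17, chr17:29378878-29379589. Its signals were -3.60, -3.19 and -2.79 in MRL mice and 1.13, 2.15 and 2.33 in LPR mice. The groups were far apart, with LPR 1 the lowest of the LPR mice. The log2 change was 5.06 (standard error 0.35, 33.4-fold, adjusted p = 0.000185 in limma). The nearest coding gene, Ppil1, a peptidyl-prolyl isomerase of the spliceosome, lies 8292 bases away on the opposite strand and did not pass (log2 change -0.02, adjusted p = 0.942). Here and below, distances to a gene are counted from the edge of the named interval to the nearest probe of that gene, not from the lincRNA probe.

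A_30_P01031689, in chr9:89167172-89168980, came next. It gave -1.51, -0.80 and -0.78 in MRL mice and 3.32, 4.15 and 3.99 in LPR mice. All LPR values lay far above all MRL values, and the log2 change was 4.85 (standard error 0.28, 28.9-fold, adjusted p = 8.74e-05). Its nearest coding gene, the folate enzyme gene Mthfs, 32249 bases away on the same strand, did not pass (-0.11, adjusted p = 0.594). Both probes passed under each of the 21 alternatives tried (limma, or the 2-tailed test of the methods), with adjusted p of at most 0.0151 and 0.0133.

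The probes in chr1:87343550-87362900 (A_30_P01027120) and chr1:85117750-85129200 (A_30_P01029479), both on the F strand, followed. A_30_P01027120 gave -1.66, -1.67 and -1.41 in MRL mice and 1.44, 1.05 and 1.42 in LPR mice. A_30_P01029479 gave -2.33, -2.07 and -1.92 in MRL mice and 0.89, 0.47 and 0.91 in LPR mice. Neither probe had overlapping groups, and LPR 2 was the lowest LPR mouse in both. Their log2 changes of 2.88 and 2.87 (adjusted p = 5.49e-05 and 9.73e-05) are not independent, since the probes share the 37 bases shown above and can bind the same transcript.

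The other 6 of the 10 largest rises ranged from 1.74 to 2.80 on the log2 scale. A_30_P01018431 in chr7:140012053-140012509, R strand, gave -3.85, -3.84 and -3.52 in MRL mice and -2.01, -0.37 and -0.43 in LPR mice. LPR 1 was again the lowest of the LPR mice, yet above every MRL mouse (log2 change 2.80, adjusted p = 0.0074). A_30_P01020367 in chr14:77042348-77042645, R strand, was steadier, with -1.70, -1.69 and -1.77 in MRL mice and 0.11, 0.38 and 0.47 in LPR mice (log2 change 2.04, adjusted p = 0.00011). A_30_P01032356 in chr14:105497388-105511063, F strand, gave 0.11, 0.16 and -0.12 in MRL mice and 1.79, 2.04 and 2.10 in LPR mice (log2 change 1.93, adjusted p = 0.000188). In these probes too the groups did not overlap. Their nearest coding genes, Eef1akmt2, Serp2 and Rbm26, did not pass. The last of the 10, A_30_P01020748 on chromosome 18, gave a log2 change of 1.74 (adjusted p = 0.0196). It was not called in 6 of the 21 alternatives, among them those without MRL 1, MRL 2, MRL 3, LPR 2 or LPR 3.

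A_30_P01032196 lies in chr16:84708695-84708806, F strand. That interval is 6627 bases from the probe of Mir155hg, the host transcript of miR-155, a microRNA of activated lymphocytes and macrophages. A_30_P01032196 gave -4.59, -5.14 and -4.77 in MRL mice and -2.97, -2.92 and -2.85 in LPR mice, without overlap (log2 change 1.92, standard error 0.15, adjusted p = 0.00038). On the R strand, A_30_P01017643 in chr16:84702353-84710928, an interval that contains the former, was also higher (log2 change 1.38, adjusted p = 0.000254). The Mir155hg probe itself, on the F strand, was above background on 0 of 6 arrays and was not tested. The nearest coding gene, Mrpl39, did not pass (-0.28, adjusted p = 0.186).

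**Figure D2:**
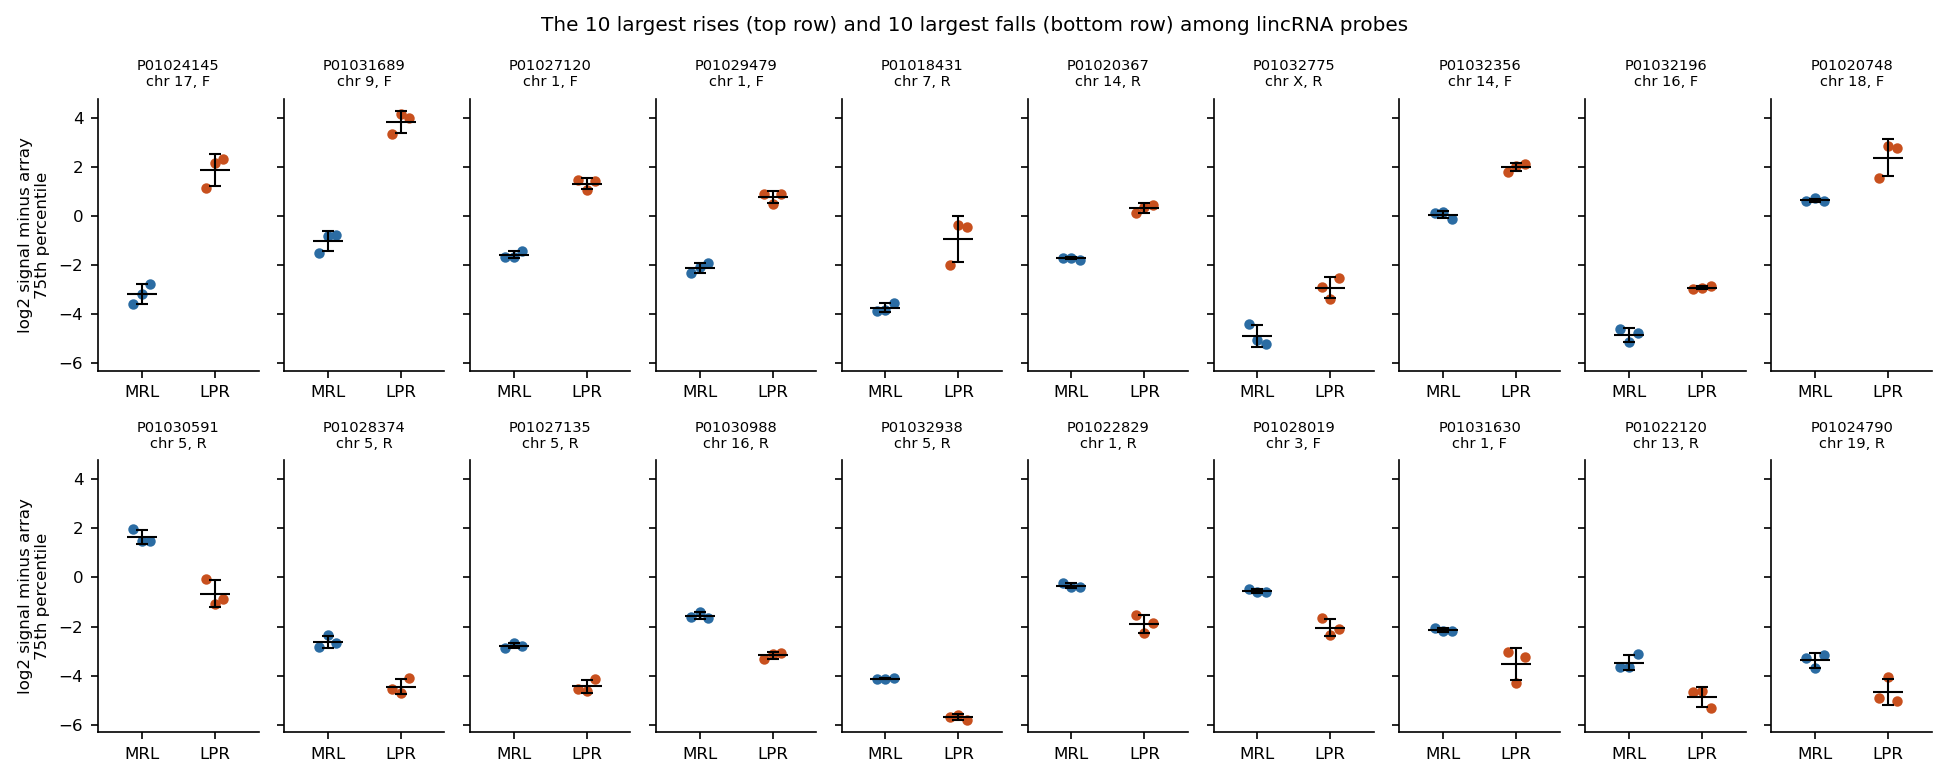
Signals of the 10 lincRNA probes with the largest rises (top row) and the 10 with the largest falls (bottom row), as log2 signal minus the 75th percentile of the array. Points are single mice (3 MRL, blue; 3 LPR, orange), the bar is the mean and the whiskers are the SD. The groups do not overlap in any of the 20, which was part of how they were chosen.

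Some probes entered the test only through the LPR arrays, being above background on all 3 of these and on no MRL array. Their direction was set by that filter and is no result, and for those called higher only a lower bound of the rise can be given. The bound sets the LPR mean against the MRL mean, with each MRL signal replaced by the dimmest well-measured signal of its array where it was below that. A_30_P01025011 in chr6:117827499-117851478, F strand, was at least 6.99-fold higher, with -3.21, -2.95 and -3.09 in LPR mice and measured values of -6.00, -6.02 and -5.78 in MRL mice (adjusted p = 2.65e-05). A_30_P01024880 in chr1:171402829-171403289, R strand, was at least 5.66-fold higher, with -4.18, -3.15 and -3.03 in LPR mice (adjusted p = 0.00213). Both passed under all 20 alternatives that tested them. The next 4 bounds were 1.98-fold to 2.26-fold. With the slide column as a term 3 of the 6 were still called, and without LPR 3 the same number.

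Probes above background in MRL mice alone were likewise fixed in direction by the filter. The largest bound was that of A_30_P01018976 in chr15:92197603-92208534, F strand, with -5.21, -5.16 and -5.23 in MRL mice, which was at least 2.02-fold lower in LPR mice (adjusted p = 0.000238). The other 4 bounds were 1.57-fold to 1.93-fold. Of the 5 probes called lower, 3 were still called with the slide column as a term.

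Of the 10 largest falls, 4 lay on the R strand of a single region of chromosome 5, between 22887983 and 22939658. A_30_P01030591 gave 1.96, 1.47 and 1.47 in MRL mice and -0.05, -1.07 and -0.86 in LPR mice, and was the only lincRNA probe called lower by at least 4-fold (log2 change -2.29, standard error 0.28, adjusted p = 0.00281). It was not called with the first slide column alone. A_30_P01032938, in chr5:22926562-22927468, gave -4.11, -4.13 and -4.08 in MRL mice and -5.67, -5.58 and -5.80 in LPR mice (log2 change -1.57, adjusted p = 0.000153). The MRL mice were nearly equal in the latter probe, and the groups were clearly apart in both. A_30_P01028374 and A_30_P01027135, the pair with the shared run, fell by 1.83 and 1.66 (adjusted p = 0.00156 and 0.000808).

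Other transcripts of the array lie in the same region and on the same strand. The noncoding Gm46902 had the larger fall: its probe (5:22905603-22905662) gave -0.57 ± 0.10 in MRL mice and -5.15 ± 0.09 in LPR mice (SD, n = 3), a log2 change of -4.58 (adjusted p = 6.62e-06). The noncoding 5031425E22Rik was measured by 2 probes that disagreed. The probe that shares the repeated motif with the lincRNA pair fell by 1.98 (adjusted p = 0.00218), and the other was higher by 0.998 (adjusted p = 0.00108). On the F strand of the region the tested lincRNA probe, in chr5:22801058-22939737, did not pass (-0.17, adjusted p = 0.414), and neither did the nearest coding gene of the 4 probes, Kmt2e, a chromatin regulator (-0.36, adjusted p = 0.109).

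The other falls were single probes or small groups. A_30_P01030988 in chr16:90103524-90104408, R strand, gave -1.62, -1.39 and -1.66 in MRL mice and -3.32, -3.12 and -3.05 in LPR mice (log2 change -1.61, adjusted p = 0.00035). A_30_P01022829 in chr1:78591605-78606083, R strand, gave -0.22, -0.38 and -0.39 in MRL mice and -1.54, -2.27 and -1.87 in LPR mice (log2 change -1.56, adjusted p = 0.00259). The groups did not overlap in either, and LPR 2 was the lowest mouse in the second. A_30_P01028019 is in chr3:36280098-36347798, F strand, an interval that lies 267 bases from a probe of Anxa5 on the opposite strand. Anxa5 is the gene of the phospholipid-binding annexin A5. A_30_P01028019 gave -0.47, -0.60 and -0.57 in MRL mice and -1.67, -2.33 and -2.11 in LPR mice (log2 change -1.49, adjusted p = 0.00236), whereas Anxa5 did not pass (0.28, adjusted p = 0.118).

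On chromosome 1, 3 of 4 short F strand intervals between 23332602 and 23341144 fell, as did the transcript CB203633 among them. A_30_P01025359 gave 0.35, 0.18 and 0.19 in MRL mice and -0.80, -1.0 and -0.69 in LPR mice (log2 change -1.07, adjusted p = 0.00184). A_30_P01024981 and A_30_P01031630 fell by 1.02 and 1.39 (adjusted p = 0.00449 and 0.0316, neither called with the slide column as a term and the latter not without MRL 1, MRL 2, MRL 3 or LPR 3), and CB203633 on the same strand fell by 0.97 (adjusted p = 0.00371). The probe of the remaining interval had a log2 change of -1.49 and did not pass (adjusted p = 0.093).

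Nearest coding genes were then set beside the lincRNA probes. For 1982 tested lincRNA probes a coding gene of the array, one with a RefSeq NM identifier, lay within 50 kb of the interval. Where this gene was higher in LPR mice, 18 of 94 lincRNA probes (19.1%) were higher. Where it did not pass, 38 of 1654 (2.30%) were higher, and where it was lower, 0 of 87. The 18 probes come from 13 intervals beside 9 genes, so they are not 18 separate cases. Of the 18, 6 lie beside Ifi204 and 5 beside A530032D15Rik. On the strand of the gene 13 of 52 probes were higher (25%), and on the opposite strand 5 of 42 (11.9%). For falls the counts were 5 of 94 beside higher genes, 97 of 1654 beside genes that did not pass and 2 of 87 beside lower genes. Among the 18 higher probes, A_30_P01024706, A_30_P01028421 and A_30_P01020239 were above background in LPR mice alone, so the filter set their direction. The last of these was the only higher probe beside Plekho2. With only probes above background on all 6 arrays tested, 15 of 79 were higher beside a higher gene. Beside a gene that did not pass, 37 of 1327 were higher in that setting.

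Coding genes beside each other showed a like order. Of 875 coding genes whose nearest other coding gene was higher, 199 (22.7%) were higher, against 6.87% of the 9787 beside a gene that did not pass. Across the 1835 lincRNA probes with a tested gene within 50 kb, the log2 changes of probe and gene had a Pearson correlation of 0.17 (Spearman 0.11), and across 11142 pairs of coding genes 0.25 (Spearman 0.14). The points share the same 6 arrays, and several probes share a gene. The lincRNA probes with the largest rises were mostly not beside a changed gene: among the 10 largest, only A_30_P01029479 was within 50 kb of a gene that was called, A530032D15Rik.

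**Figure D3:**
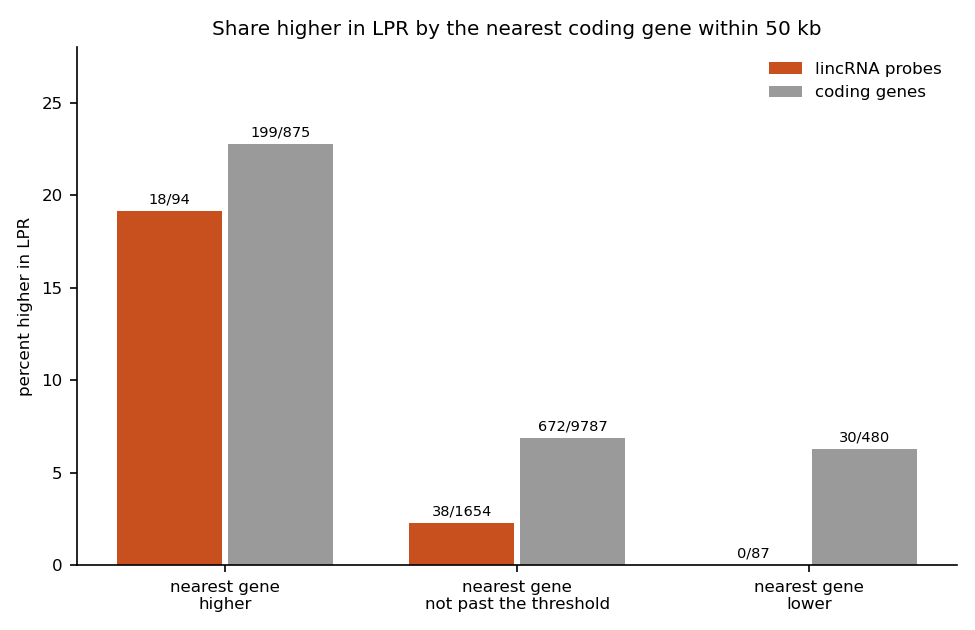
Percent of lincRNA probes (orange) and of coding genes (grey) that were higher in LPR mice, by what the nearest coding gene within 50 kb did (for a coding gene, the nearest other one). The numbers above the bars are probes or genes that were higher over those tested. The share was 19.1% for lincRNA probes beside a gene that was higher and 2.30% beside a gene that did not pass. Some of the higher lincRNA probes beside a higher gene were above background in LPR mice alone, so the filter set their direction.

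**Figure D4:**
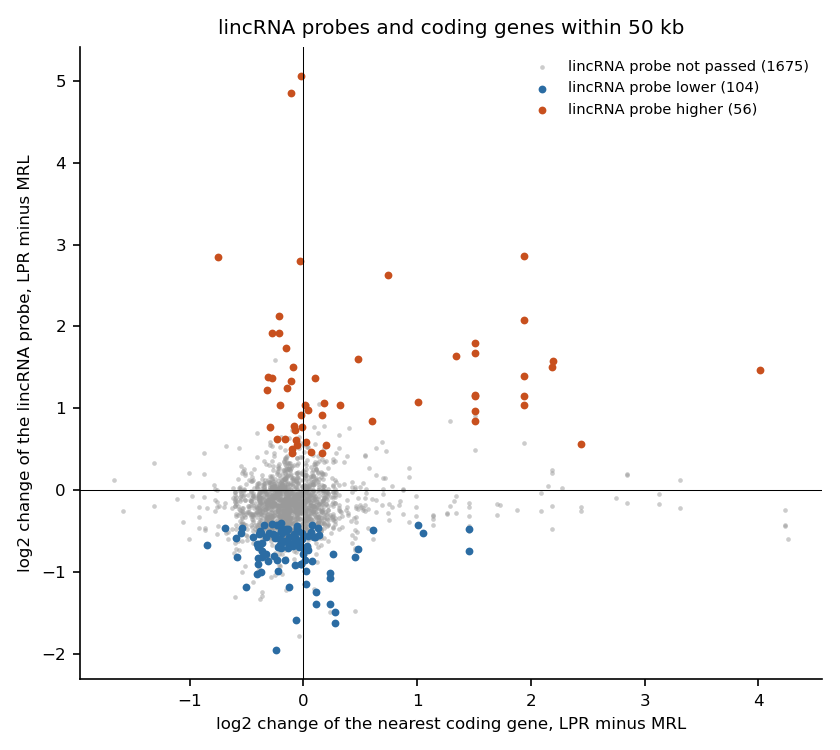
Log2 change, LPR minus MRL, of 1835 lincRNA probes (vertical) and of their nearest coding gene within 50 kb (horizontal). Orange and blue points are lincRNA probes that were higher or lower in limma. The 2 largest rises stand above genes near 0, and a set of higher probes stands to the right, above genes whose log2 change was over 1.

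The 9 genes were A530032D15Rik, Ifi204, Plekho2, Nlrc5, Trim30a, Socs3, Irf1, Gm1966 and Acta1. Beside genes of the interferon response list there were 18 tested lincRNA probes: 7 were higher, 6 of them beside Ifi204 and 1 beside Irf1, and 2 were lower, both beside Isg15. At Socs3, an inhibitor of cytokine signalling, A_30_P01032682 in chr11:117792051-117811334, R strand, gave -3.33, -3.52 and -3.44 in MRL mice and -1.89, -1.93 and -1.96 in LPR mice. The 3 mice of each group were close together and the groups were far apart (log2 change 1.503, standard error 0.10, adjusted p = 0.000171). The interval is 16146 bases from the probe of Socs3, which was higher by 2.19. The other 4 tested probes beside Socs3 did not pass. Beside Nlrc5, an activator of MHC class I genes that was higher by 4.01, A_30_P01023799 was higher by 1.47. Beside Irf1, a transcription factor of the interferon response that was higher by 2.44, A_30_P01019936 was higher by 0.57, and 2 others did not pass.

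At Gm1966, A_30_P01027518 in chr7:113768215-113783490, R strand, gave -3.68, -3.60 and -3.80 in MRL mice and -1.95, -2.43 and -1.99 in LPR mice (log2 change 1.57, adjusted p = 0.00095). The gene, 23338 bases away on the same strand, was higher by 2.19. Beside Plekho2, which was higher by 1.34, A_30_P01020239 was above background in LPR mice alone and at least 1.28-fold higher, and 2 other tested probes did not pass. Slmap and Itgb6 fell by 0.58 and 0.85 on the log2 scale, and beside each 1 lincRNA probe was lower (log2 changes of -0.82 and -0.67) and 1 did not pass.

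In 5 cases the lincRNA probe was lower beside a gene that was higher. Of the 7 tested probes beside Isg15, a ubiquitin-like protein induced by interferon, 2 were of this kind, both on the strand of the gene, and 5 did not pass. A_30_P01033628 in chr4:155564927-155571580, an interval 2069 bases from the probe of Isg15, gave -2.36, -2.77 and -2.49 in MRL mice and -3.21, -3.22 and -3.41 in LPR mice. The groups did not overlap and the log2 change was -0.74 (adjusted p = 0.0169), while Isg15 was higher by 1.45. A_30_P01019456, in an overlapping interval, fell by 0.47 (adjusted p = 0.0382). The other 3 were beside Dram1, Nr2f1 and Trim30a, with falls of 0.52, 0.49 and 0.42. These 5 falls were small, and 0 of the 5 were called with the slide column as a term, without MRL 1, without MRL 3 or without LPR 3.

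A dense set of changed lincRNA probes lay around Ifi204 on chromosome 1, an interferon-inducible gene of the p200 family. Sets of neighbouring intervals such as this one were picked after the values were seen. Of 8 tested probes in 3 intervals between 175654606 and 175717250, 6 were higher, all on the R strand, which is the strand of Ifi204. Among the 6, A_30_P01024706 was above background in LPR mice alone. Its direction was set by the filter, and only a bound of at least 2.03-fold can be given. A_30_P01017895 gave -2.52, -2.46 and -2.18 in MRL mice and -0.45, -1.30 and -0.38 in LPR mice (log2 change 1.68, adjusted p = 0.00739). A_30_P01024163 gave 0.30, 0.30 and 0.34 in MRL mice and 1.63, 1.02 and 1.77 in LPR mice (log2 change 1.16, adjusted p = 0.0119). LPR 2 was the lowest of the LPR mice in both probes and in the other probes of these intervals on the R strand that were called. Ifi204 was higher by 1.51 and by 1.92 with its 2 probes. Another transcript of the array in this region and on the R strand, ENSMUST00000155076, was higher by 0.975 (adjusted p = 0.0218). Ifi208, on the F strand, did not pass with its brighter probe (-0.389, adjusted p = 0.0626), and its dimmer probe was above background in LPR mice alone. The 2 lincRNA probes that did not pass had log2 changes of 0.50 and 0.91, the latter a fitted value of a probe above background in LPR mice alone. Of the 6 calls, 4 were lost with the slide column as a term, without MRL 1 or without LPR 3, and 3 without MRL 2, MRL 3 or LPR 1.

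Around A530032D15Rik, also on chromosome 1, the interval chr1:85117750-85129200 was higher on both strands. On the F strand A_30_P01029479 had a log2 change of 2.87, and A_30_P01028421, above background in LPR mice alone, was at least 1.98-fold higher. On the R strand A_30_P01026202 was higher by 1.40 (adjusted p = 0.0409). A530032D15Rik was higher by 1.94, and 2 more intervals, 1 on each strand and within 50 kb of its probe, were higher by 1.04 and 1.15. The probe at 1.04, A_30_P01017898, was above background on 1 MRL array and is complementary over at least 20 bases to a probe of ENSMUST00000160058. Other transcripts there were higher too: Gm7609 (1.29), ENSMUST00000160058 (1.59), ENSMUST00000162421 (1.125) and ENSMUST00000160802 (2.68). A530040E14Rik and AA624905 did not pass (-0.121 and -0.247). In neighbouring intervals, A_30_P01019834 on the R strand (0.85, adjusted p = 0.0556) and A_30_P01028464 on the F strand (-0.19, adjusted p = 0.244) did not pass. The interval chr1:87343550-87362900, whose F strand probe shares the 37 bases, was higher on both strands too, by 2.88 and 1.12, and A_30_P01024184 in the overlapping interval chr1:87348082-87409907 by 1.65 (adjusted p = 0.000393). The nearest coding gene there, Sp110, an interferon-induced nuclear body protein, gave no single answer: its brightest probe did not pass (-0.29, adjusted p = 0.183) and 2 others of the same RefSeq entry were higher by 1.70 and 1.56. With the slide column as a term A_30_P01028421, A_30_P01026202 and the R strand probe A_30_P01033235 were not called.

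On chromosome X all 4 tested probes between 92119889 and 92157256, on the R strand, were higher. A_30_P01032775 gave -4.39, -5.05 and -5.22 in MRL mice and -2.90, -3.36 and -2.51 in LPR mice (log2 change 1.96, adjusted p = 0.00589). A_30_P01033617, which shares 49 bases with it, had a log2 change of 1.66 (adjusted p = 0.011). A_30_P01027477 was above background on 0 of 3 MRL arrays and at least 2.26-fold higher. A_30_P01023222, above background on 1 MRL array, had a log2 change of 1.39 (adjusted p = 0.0453) and kept its call in 7 of 20 alternatives. Of the 4 calls, 0 remained with the slide column as a term. The nearest coding gene, Spin4, is over 50 kb away and did not pass (0.02, adjusted p = 0.954).

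**Figure D5:**
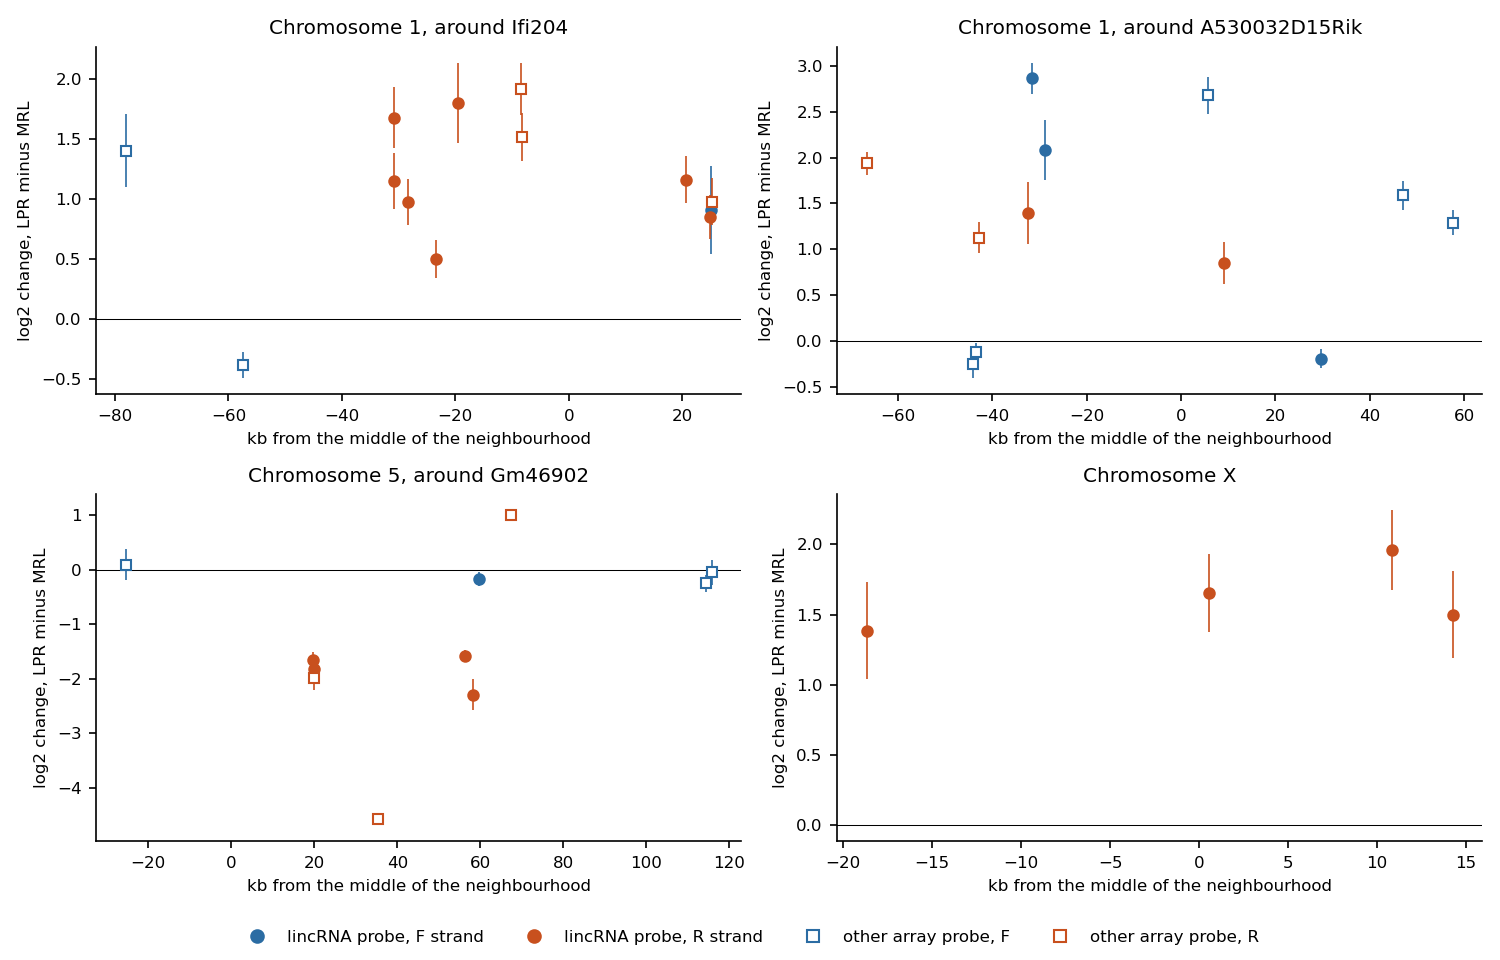
Log2 change, LPR minus MRL, with the standard error of the fit, of each tested probe in 4 regions by distance in kb from the middle of the region. Filled circles are lincRNA probes and open squares are other probes of the array within 50 kb, in blue for the F strand and in orange for the R strand. R strand probes are higher around Ifi204 and on chromosome X and lower on chromosome 5, where Gm46902 stands at -4.58 and a probe of 5031425E22Rik at 0.998. For A_30_P01024706, A_30_P01028421 and A_30_P01027477, not above background in MRL mice, the point is the fitted value and not a measured size.

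Sets with smaller falls lay beside Pnpla8 and Mecom. In chr12:45415565-45423519, on both strands, 3 of 5 tested probes fell, on the F strand by 0.65 and 0.74, and on the R strand by at least 1.57-fold, the probe being above background in MRL mice alone. Without MRL 1, MRL 2 or LPR 1, 0 of the 3 were called. Pnpla8, a phospholipase gene 2516 bases away, had a log2 change of -0.36 with its brightest probe (adjusted p = 0.0891) and fell by 0.54 with another (adjusted p = 0.0115). At Mecom, a zinc finger transcription factor gene, 3 of 10 tested probes between 30032959 and 30133959 of chromosome 3 fell by 0.40, 0.66 and 0.83. Of these calls 0 of 3 remained with the slide column as a term, and without MRL 1, MRL 2, MRL 3 or LPR 3 the call of A_30_P01019816 alone was kept. The log2 changes of the other 7 ran from -0.48 to -0.23 and did not pass, and that of Mecom was -0.39 (adjusted p = 0.0838).

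Calls were compared within intervals. Of single tested lincRNA probes 9.14% were called, against 12.7% of all tested probes. No count expected at these rates is given for intervals. Among 167 intervals with at least 2 tested probes on a strand, 33 had a called probe, 7 had at least 2, and 1 had calls in both directions. It was the following. In chr17:29374758-29387733, F strand, which contains the short interval of the largest rise, A_30_P01032951 was higher by 0.92 (adjusted p = 0.00648) and A_30_P01028898 fell by 0.90 (adjusted p = 0.0206). The other 2 tested probes of that strand had log2 changes of -0.41 and -0.14. A_30_P01028898 was above background on 1 of 3 LPR arrays, and both calls were lost with the slide column as a term.

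Of 432 intervals tested on both strands, 72 had a called probe on 1 strand alone and 5 on both. Here too, no count expected at the rate of single lincRNA probes (9.14%) is given. Of the 6 calls named in the 3 intervals of like direction, 3 were lost with the slide column as a term. The 5 were the 2 intervals of chromosome 1 above (higher on both), the interval beside Pnpla8 (lower on both), and 2 with opposite directions. Beside Pnpla8 the R strand probe was above background in MRL mice alone, so the filter set its direction. In chr3:126989696-127112471 the probes that are reverse complements moved apart. On the F strand A_30_P01027675 gave -1.90, -1.79 and -1.99 in MRL mice and -1.40, -1.21 and -0.94 in LPR mice, higher by 0.71 (standard error 0.14, adjusted p = 0.0227). On the R strand A_30_P01023003 gave -5.29, -5.39 and -5.42 in MRL mice and -5.90, -6.30 and -6.06 in LPR mice, a fall of 0.72 (standard error 0.13, adjusted p = 0.0148). The groups did not overlap on either strand, and on the R strand 1 of 3 LPR arrays was above background. Neither probe was called with the slide column as a term, nor without MRL 1, MRL 2 or LPR 3.

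The other was chr7:111526943-111545093, 15077 bases from Trim30a, a regulator of innate immune signalling. On the R strand, that of Trim30a, A_30_P01024661 gave -3.36, -3.07 and -3.41 in MRL mice and -2.08, -2.36 and -2.17 in LPR mice (log2 change 1.07, adjusted p = 0.00322). On the F strand A_30_P01017625 gave -0.74, -0.70 and -0.79 in MRL mice and -1.29, -1.07 and -1.15 in LPR mice (log2 change -0.42, adjusted p = 0.0447). Neither pair of groups overlapped, and Trim30a was higher by 1.01. The F strand probe is complementary over at least 20 bases to a probe of the related gene Trim30b, and that Trim30b probe was higher by 0.67. Another probe of Trim30b, with a RefSeq NM identifier, was above background on no array and was not tested. The F strand call was lost with the slide column as a term and without any 1 mouse other than LPR 2.

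By position, chromosome 1 held 20 of the 90 higher probes, or 8.77% of its 228 tested lincRNA probes. Of the 20, 6 lay beside Ifi204, 5 beside A530032D15Rik and 3 between 87343550 and 87452625, so they are not 20 separate cases. Of all tested probes of chromosome 1, 7.96% were higher. On the other chromosomes 0.676% to 4.62% of the lincRNA probes were higher, against 3.83% to 12.1% of all tested probes. None of the 147 tested probes whose interval holds a probe of a coding gene was higher, and 9 (6.12%) were lower. Over all tested lincRNA probes 3.16% were higher and 5.97% lower, and over all tested probes 6.53% and 6.17%. Intervals that hold a coding gene probe number 138 in all, 84 of them with a lincRNA probe on the strand of that gene, so the name intergenic did not hold for them on these coordinates. Of the 260 called lincRNA probes, 68 were in an interval that holds a probe of another transcript of the array, 40 of them on the same strand.

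The 5 brightest lincRNA probes did not pass. Their mean signals in MRL mice ran from 6.51 to 7.64, and their log2 changes from -0.22 to 0.13 (adjusted p = 0.358 to 0.965). The groups overlapped in each. Of 47 tested long noncoding RNAs known by a gene name, 1 was higher and 2 were lower, against 6.53% and 6.17% of all tested probes. Mir142hg, the host transcript of miR-142, a microRNA of blood cells, was higher by 3.14 (8.79-fold, adjusted p = 0.000209), with -1.88, -1.75 and -1.10 in MRL mice and 1.56, 1.37 and 1.75 in LPR mice. Rpph1, the RNA of ribonuclease P, fell by 1.27 (adjusted p = 0.0182), and Jpx, an activator of Xist, fell by 0.39 (adjusted p = 0.0426).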

How the data were processed

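Total RNA from 6 kidneys was labelled with Cy3 and hybridized to 6 arrays of a single slide. The authors deposited spot intensities from Feature Extraction 12.0.3.1, background-subtracted but not scaled between arrays. The authors also deposited a signal for each probe scaled to the 75th percentile of its array, used as an alternative. Here log2 intensities had the 75th percentile of the array (706 to 942) subtracted, control and outlier spots were dropped, and spots of a probe were averaged. Probes well above background on 3 or more arrays were fitted with limma 3.58.1 (R 4.3.3), and p was adjusted over all 39924 of them (Benjamini-Hochberg, threshold 0.05). A gene is given by its brightest tested probe. An exact test of 3 against 3 mice cannot go below 0.1 and is not given. The labels number the kidney samples of a group without naming animals. They are taken here as 1 mouse each, and p-values measure only the spread between these samples.

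The members, the gene lists and the rules for naming were chosen with earlier results of these data known. Named were the 10 largest rises and falls without overlap and above background on all arrays, up to 6 lower bounds each way, the 5 brightest, intervals called on both strands, up to 6 pairs each way with a called gene within 50 kb, and sets with at least 3 called probes. Others were picked after their values were seen. Probe positions and sequences come from the array (mm9), which gives positions for 4358 of the 4449 lincRNA probes. Of 35269 probes with a RefSeq identifier, 33767 matched a current symbol (GRCm38.p6, names only). The fit was tested on simulated data.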

Additional observations from a re-analysis of the deposited data

How the results depend on the processing

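The 90 higher and 170 lower lincRNA probes kept their sign in all alternatives that tested them. They were picked as called on these same arrays. Where the groups do not overlap, leaving out mice cannot turn the sign, so this result was largely fixed beforehand. The median log2 change stayed between -0.205 and -0.149. The number called moved more. With the slide column as a term 31 were higher and 42 lower, of which 31 and 28 were among the 90 and 170. With the first slide column alone 28 were higher and 35 lower. In both settings 1 LPR mouse carries the comparison and is assumed to vary like the other mice. The methods' 2-tailed test with Benjamini-Hochberg adjustment gave 36 and 76. Without a filter on dim probes 60 were higher and 75 lower. Leaving out 1 mouse gave 44 to 74 higher and 52 to 144 lower. Mice with the same replicate number share only the number: their deviations correlated by 0.115, 0.020 and 0.005, and with the replicate block 74 were higher and 81 lower. The causes were not tested. The share of lincRNA probes higher beside a gene that was higher was 16.0% to 21.5% with other distances, strands, genes or filters.

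Among the 5 brightest probes, where no change was called, signs turned. A_30_P01026458 had -0.11 with the slide column as a term and with the first column alone. A_30_P01031264 had 0.0075 with quantile normalization, 0.0019 with a median shift, 0.0189 with a percentile over detected probes, and -0.0904 to 0.1006 when 1 mouse was left out. A_30_P01031448 had 0.0062 with a percentile over detected probes and -0.1086 to 0.0846 when 1 mouse was left out. The number of arrays and, for dim probes, the signal near background limit the precision.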
